A study of Sus scrofa with 22 samples.

Results

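Antimicrobial proteins of the gut mucosa were followed in the small intestine of piglets given chemotherapy. The set was chosen by name: every array probe whose accession maps to the pig symbols LYZ, LTF, LCN2, BPI, PMAP-23, DEFB1, PGLYRP2 or ANG. In the RefSeq annotation the symbol DEFB1 covers a pair of separate pig genes, porcine beta-defensin 1 (PBD-1) and porcine beta-defensin 2 (PBD-2), so the 8 symbols gave 9 genes, measured by 17 probes, out of 35871 genes on the array. Each gene is represented by its brightest probe and its other probes serve as a check.

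The tissue came from 2 separate experiments on 22 crossbred specific pathogen free (SPF) piglets, Large White × Danish Landrace, described as 3 days old, without saying whether that was at treatment or at sampling. In the first, 6 piglets received a single intravenous dose of doxorubicin (DOX), a topoisomerase II inhibitor, and 6 were untreated. In the second, 5 received the alkylating drugs busulfan and cyclophosphamide (BUCY) and 5 were untreated. All had suckled from birth before they reached the facility. The sources used here give neither the part of the small intestine nor dose, time of sampling or litter. The samples were whole tissue, in which fewer cells of a type and less RNA per cell cannot be told apart.

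The mucosa keeps microbes in check with secreted proteins of several kinds. Lysozyme (LYZ) and the peptidoglycan recognition protein PGLYRP2 cut peptidoglycan, the mesh of the bacterial wall. The bactericidal/permeability-increasing protein (BPI) binds the lipopolysaccharide of Gram-negative bacteria. Lactoferrin (LTF) and lipocalin 2 (LCN2) keep iron from microbes, LTF by binding iron and LCN2 by binding the siderophores with which bacteria fetch it. Angiogenin (ANG) is a secreted ribonuclease with antimicrobial activity, and the beta-defensins and the cathelicidin PMAP-23 are short cationic peptides that damage microbial membranes. In human and mouse, epithelial and Paneth cells, macrophages and neutrophils share the making of these proteins.

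Values are log2 ratios of a piglet's RNA (Cy5) to a pool of all samples (Cy3) on the same 2-colour array, so 0 is the level of the pool and 1 unit is a doubling. Precision is limited by the number of arrays, on which 59.6% to 72.5% of probes were well above background. Treated piglets 2 and 3 of the BUCY experiment lay apart from all others on the second principal component (55.6 and 67.9 against -44.6 to 28.4), and in them the mean log2 ratio of 7 measured enterocyte markers was -1.33 and -2.22, against 0.09 to 0.82 in the other treated piglets of that experiment. All 7 enterocyte markers were well above background on every array. The array of treated piglet 3 had the fewest probes well above background of all (59.6%). It also had the lowest median Cy5 signal (88, where the highest of any array was 210). That of treated piglet 2 had 66.3% and 135. The part of array quality in the position of these piglets was not tested. Arrays of different groups correlated down to r = -0.378 over 43603 probes, with 7 pairs under -0.3 and 0 of them within a group, and the direction of the ratio is as the labels state the dyes.

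The amount of signal differed widely among the 9 genes. The brightest LYZ probe took place 229 of 43603 probes by mean Cy5 signal, and all 3 LYZ probes, all 3 ANG probes and both BPI probes stood well above background on all 22 arrays. The brightest probes of LTF, PBD-2 and PGLYRP2 did so too. PBD-1 was well above background on 19 arrays, PMAP-23 on 14 and LCN2 on 7, so the values of LCN2 in particular are close to the floor of the assay. All 9 genes passed the filter for testing (well above background on at least 5 arrays), as did 16 of the 17 probes.

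The DOX comparison asks how this drug alters the intestine. One gene, ANG, rose after DOX among the 9 (limma's adjusted p under 0.05), where 0.848% of the 24764 tested genes changed in either direction and 0.367% rose. LYZ showed the largest difference of the set and its groups did not overlap, which held for 1.22% of tested genes in that direction, but it missed the threshold. None of the 9 separated with the treated group below, as 1.39% of tested genes did. The median log2 change of the 9 genes was 0.48, against 0.01 over all tested genes.

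The second comparison asks how BUCY alters the intestine. PGLYRP2 and BPI rose, as 8.23% of tested genes did, and PMAP-23 fell, as 9.05% did, so 3 of 9 changed where 17.3% of tested genes changed in either direction. Only PGLYRP2 of the 9 separated the treated from the untreated piglets without overlap, as did 3.22% of tested genes with the treated group above; 0 of 9 did so with the treated group below, as did 3.35% of tested genes. The median log2 change of the 9 genes was -0.24, against -0.00116 over all tested genes.

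**Figure D1:**
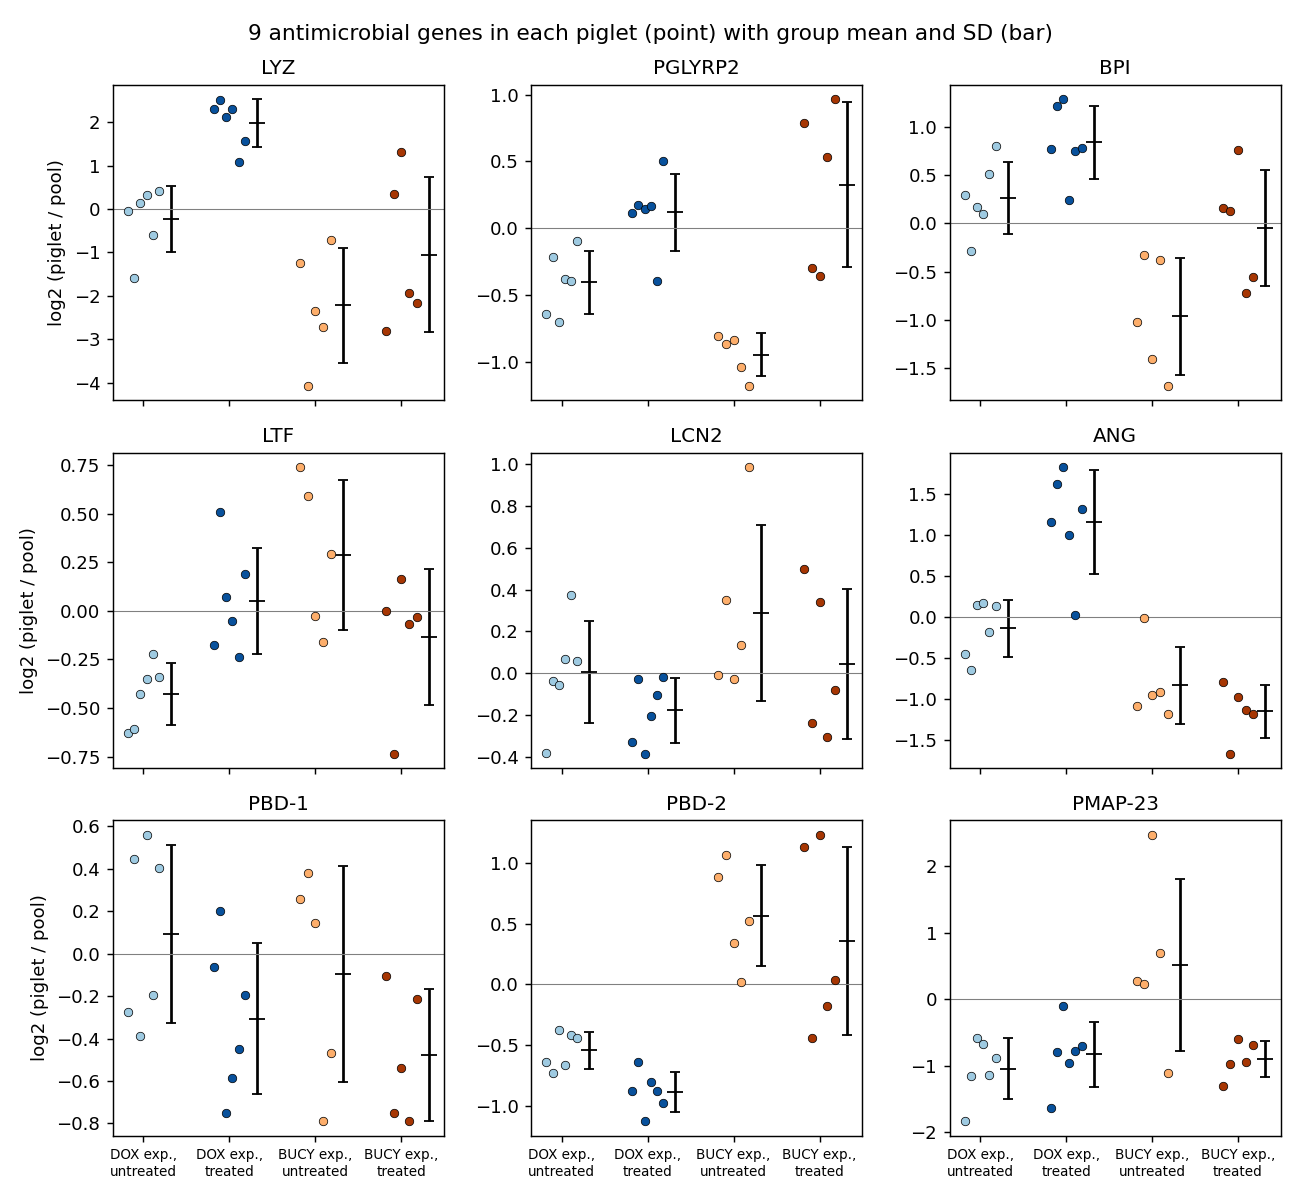
Log2 ratio to the pool (vertical axis, each panel on its own scale) of the brightest probe of 9 genes in each piglet (points) of the 4 groups, with group mean and SD as a bar to the right. The 6 DOX treated piglets lie above all untreated piglets of their experiment for LYZ, and the 5 BUCY treated piglets do so for PGLYRP2.

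LYZ, the muramidase of the set, had a lowest, median and highest log2 ratio of -1.58, 0.05 and 0.42 in untreated and 1.07, 2.21 and 2.51 in DOX treated piglets. Every treated piglet lay above every untreated one. The difference was 4.59-fold (log2 change 2.20, SE 0.614, 95% interval 0.92 to 3.48, n = 6 and 6), with an adjusted p of 0.0928 by limma. It was 1.31 to 3.11 within the 3 slides that held both groups and 2.9 and 1.6 within 2 scan days. Its other probes gave 2.24 and 1.76 (adjusted p = 0.0814 and 0.127 among probes).

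LYZ missed the threshold in 36 of 41 alternatives, and with Cy5 alone in place of the ratio its log2 change was 0.99 (adjusted p = 0.481). It passed in 5, 4 of them with BUCY arrays left out or arrays weighted. Without BUCY treated piglet 3 the adjusted p was 0.0438, without both piglets that stood apart 0.0152, with the DOX groups alone 0.0039, and with array quality weights 0.0136. Scaling the ratios between arrays gave 2.67 (adjusted p = 0.0293).

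In the BUCY experiment LYZ was at -1.24, -4.08, -2.35, -2.73 and -0.70 in untreated piglets 1 to 5. In treated piglets 1 to 5 it was at -2.81, 0.34, 1.32, -1.94 and -2.16. Piglets 2 and 3 were thus far above the other treated piglets, which lay inside the untreated range. The log2 change was 1.17 (SE 0.673, adjusted p = 0.236), and without those 2 piglets it was -0.08. They are the piglets with the low enterocyte markers, and the part of that in the LYZ values was not tested.

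PGLYRP2, the amidase, was at -0.81, -0.87, -0.84, -1.04 and -1.18 in untreated piglets 1 to 5 of the BUCY experiment and at 0.79, -0.30, -0.36, 0.53 and 0.96 in the treated ones. The treated piglets all lay higher, with piglets 2 and 3 lowest among them. PGLYRP2 rose 2.42-fold (limma adjusted p = 5.39e-04, n = 5 and 5), with a log2 change of 1.27 and an SE of 0.213. The difference was 1.12 to 2.15 within 3 slides, each with 1 untreated and 1 or 2 treated piglets of that experiment. Within the scan days it was 1.09 to 2.15. Its dim second probe, well above background on 6 arrays, changed by 0.25 (adjusted p = 0.0253 among probes). The call ended when arrays were median centred instead of loess normalised (0.83, adjusted p = 0.102), which also moved the median of all genes by -0.12 in this comparison (and by -0.11 between treated groups), so that the change relative to that median was 0.96.

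After DOX, PGLYRP2 had a lowest, median and highest ratio of -0.70, -0.39 and -0.10 in untreated and -0.39, 0.16 and 0.50 in treated piglets. Treated piglet 5 alone lay inside the untreated range. The log2 change of 0.53 (SE 0.195) missed the threshold (adjusted p = 0.213), and the second probe gave -0.05. It passed without both BUCY treated piglets that stood apart (adjusted p = 0.0421) and with array weights (adjusted p = 0.0466). The BUCY and DOX changes of PGLYRP2 differed by 0.75 (SE 0.289), which also missed it (adjusted p = 0.141) but passed without those 2 piglets (1.18, adjusted p = 0.00519).

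BPI, the lipopolysaccharide-binding protein of neutrophil granules and mucosa, was at -1.02, -0.33, -1.40, -0.38 and -1.68 in untreated piglets 1 to 5 of the BUCY experiment. In the treated ones it was at 0.16, 0.13, 0.76, -0.73 and -0.56. Treated piglets 1 to 3 lay above all untreated ones, and piglets 4 and 5 among them. BPI rose 1.89-fold (limma adjusted p = 0.0323, n = 5 and 5), with a log2 change of 0.92 and an SE of 0.287. It was higher within each of 3 slides, by 0.40 to 1.56, with only 1 untreated and 1 or 2 treated piglets on each.

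The BPI call was fragile. It ended in 15 of 41 alternatives, among them with the second probe (0.43, adjusted p = 0.291), without both piglets that stood apart (0.59, adjusted p = 0.339), and without untreated piglet 1, 3 or 5 or treated piglet 2 or 3 (0.71 to 0.90, adjusted p = 0.0592 to 0.11). In the DOX experiment BPI ranged from -0.29 to 0.80 in untreated and from 0.24 to 1.28 in treated piglets, with medians of 0.23 and 0.77 and overlapping groups. The log2 change there was 0.58 (SE 0.262, adjusted p = 0.33).

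LTF, the iron-binding protein of milk, secretions and neutrophil granules, had a lowest, median and highest ratio of -0.63, -0.39 and -0.22 in untreated and -0.24, 0.01 and 0.51 in DOX treated piglets. Only treated piglet 5 lay inside the untreated range. The log2 change was 0.48 (SE 0.163, adjusted p = 0.169, n = 6 and 6). It missed the threshold in 39 of 41 alternatives, with a lowest change of 0.14 (adjusted p = 0.439) from the second probe. With the DOX groups alone in the model the adjusted p was 0.0478, and with array weights 0.033.

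After BUCY the LTF difference had the opposite sign. Untreated piglets 1 to 5 were at 0.74, 0.59, -0.03, -0.16 and 0.29, and treated piglets 1 to 5 at -0.00062, -0.74, 0.17, -0.07 and -0.03. Treated piglet 2 lay below every other piglet of that experiment. The log2 change was -0.42 (SE 0.179, adjusted p = 0.105). Within slides, each with 1 untreated and 1 or 2 treated piglets, it was 0.03, 0.21 and -0.33, so its sign did not hold there. On the first scan day it was -0.80. Without untreated piglet 4 it passed (-0.53, adjusted p = 0.0416), as it did with median centring (-0.65, adjusted p = 0.0357). The second LTF probe, well above background on 2 arrays, did not pass the filter on dim probes; set in place of the brightest, it gave -0.03 after BUCY (adjusted p = 0.871).

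LCN2, the siderophore binder, was well above background on 1 of 6 arrays of untreated and 0 of 6 arrays of treated piglets in the DOX experiment, and on 4 of 5 and 2 of 5 in the BUCY experiment. In the DOX treated group LCN2 was thus not well above background, so no fold is given. The log2 change as measured was -0.18 (SE 0.165, 95% interval -0.52 to 0.16, adjusted p = 0.652). After BUCY it was -0.24 (SE 0.18, adjusted p = 0.371). Untreated piglet 5 of that experiment had the highest LCN2 ratio of all, 0.98, and the next highest was 0.50.

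ANG had a lowest, median and highest ratio of -0.64, -0.02 and 0.17 in untreated and 0.02, 1.23 and 1.83 in DOX treated piglets. Treated piglet 5 lay among the untreated ones and the other 5 above them all. ANG rose 2.45-fold (log2 change 1.29 with an SE of 0.25, limma adjusted p = 0.0108), and its other probes gave 1.38 and 1.38 (adjusted p = 0.00767 and 0.00897 among probes). Within 3 slides the difference was 0.61 to 1.70, and within 2 scan days 1.70 and 0.74. The call ended with median centring (1.17, adjusted p = 0.165) and without the 6 arrays whose sample titles carry a suffix (1.16, adjusted p = 0.067).

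After BUCY the ANG difference was small and of the opposite sign. ANG was at -1.08, -0.02, -0.95, -0.91 and -1.18 in untreated and at -0.79, -1.66, -0.97, -1.13 and -1.18 in treated piglets 1 to 5. The groups overlapped, with untreated piglet 2 far above the other 4 untreated. The log2 change was -0.32 (SE 0.274, 95% interval -0.89 to 0.25, adjusted p = 0.445). The interval of the BUCY change thus stayed under 0.25, while that of the DOX change began at 0.77.

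The test of the difference between the drugs' effects asks which genes changed unequally in the DOX and BUCY experiments. Each regimen was given in its own experiment, so drug and experiment cannot be told apart. Of the 9 genes 2 passed, both with the lower value after BUCY, where 5.88% of tested genes passed, 2.73% with the lower and 3.14% with the higher value after BUCY. The BUCY minus DOX difference was -1.61 for ANG (SE 0.371, adjusted p = 0.0124), the call of which ended with median centring (-1.97, adjusted p = 0.0777) and without the arrays with a title suffix (-1.70, adjusted p = 0.0982). For LTF it was -0.90 (SE 0.242, adjusted p = 0.03), and this call ended in 12 of 40 alternatives, among them without DOX untreated piglet 1, DOX treated piglet 6, BUCY untreated piglet 1 or 2 or BUCY treated piglet 2 (-0.87 to -0.75, adjusted p = 0.053 to 0.0613). The LTF difference was smaller with the second probe (-0.16, adjusted p = 0.479) and with slide as a fixed block (-0.60, adjusted p = 0.0792), and both ended the call.

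**Figure D2:**
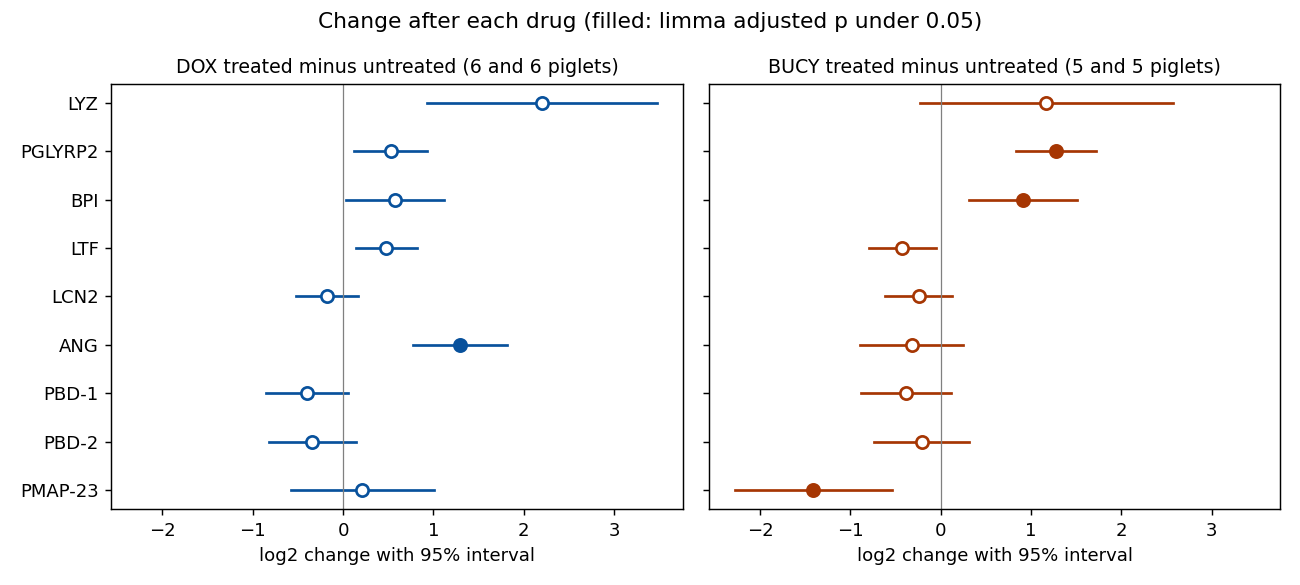
Log2 change after DOX (left) and BUCY (right) of the 9 genes with 95% intervals from limma; filled points passed the threshold over all genes. ANG is at 1.29 after DOX and -0.32 after BUCY, and LTF at 0.48 and -0.42.

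The beta-defensins, peptides of epithelial cells, changed past the threshold after neither drug. PBD-1 ranged from -0.39 to 0.56 in untreated and from -0.75 to 0.20 in DOX treated piglets, with medians of 0.11 and -0.32 (log2 change -0.40, SE 0.218, adjusted p = 0.434). In the BUCY experiment its ratios were 0.26, 0.38, 0.14, -0.79 and -0.47 in untreated and -0.10, -0.75, -0.54, -0.79 and -0.21 in treated piglets (log2 change -0.38, SE 0.239, adjusted p = 0.28). The groups overlapped in both experiments, and the 95% intervals of the log2 change ran from -0.85 to 0.05 and from -0.88 to 0.11.

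PBD-2 had narrow groups in the DOX experiment, from -0.73 to -0.37 in untreated and from -1.13 to -0.64 in treated piglets, with medians of -0.54 and -0.87. The log2 change was -0.34 (SE 0.232, adjusted p = 0.543). In the BUCY experiment PBD-2 was at 0.89, 1.06, 0.34, 0.02 and 0.52 in untreated and at 1.13, -0.44, 1.23, -0.18 and 0.04 in treated piglets. The treated piglets spread on both sides of the untreated ones, and the log2 change was -0.21 (SE 0.254, adjusted p = 0.606).

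PMAP-23, a cathelicidin first known from pig myeloid cells, was at 0.28, 0.23, 2.48, 0.69 and -1.11 in untreated and at -1.30, -0.97, -0.60, -0.93 and -0.68 in BUCY treated piglets 1 to 5. Untreated piglet 3 stood high and untreated piglet 5 lay inside the treated range. PMAP-23 fell 2.66-fold (log2 change -1.41, SE 0.418, adjusted p = 0.0245), with the probe well above background on 4 of 5 untreated and 3 of 5 treated arrays. Within slides the difference was -3.78, -1.46 and 0.43, with 1 untreated and 1 or 2 treated piglets on each. The call ended without untreated piglet 3 (-0.92, adjusted p = 0.0586) or treated piglet 2 (-1.39, adjusted p = 0.0576), with the BUCY groups alone (adjusted p = 0.132), with array weights (adjusted p = 0.0521), with Agilent's own log ratio (-2.59, adjusted p = 0.097), and, without both piglets that stood apart, at -1.49 (adjusted p = 0.102).

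In the DOX experiment PMAP-23 ranged from -1.84 to -0.57 in untreated and from -1.64 to -0.10 in treated piglets, with medians of -1.01 and -0.78. The groups overlapped (log2 change 0.21, SE 0.381, adjusted p = 0.843). The difference between the effects of the drugs, -1.62 (SE 0.566), missed the threshold (adjusted p = 0.0969) but passed without BUCY untreated piglet 5 (-2.03, adjusted p = 0.018).

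Probes of 1 gene gave like changes for ANG after both drugs and for LYZ after DOX, and unlike ones for PGLYRP2. Its brightest probe changed by 1.27 after BUCY and the second, which lay near background, by 0.25. LYZ's probes gave 1.17, 1.17 and 0.65 after BUCY (SE 0.60 to 0.67). BPI's probes gave 0.92 and 0.43 after BUCY and 0.58 and 0.51 after DOX. Whether the probes of a gene detect the same transcripts was not tested.

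**Figure D3:**
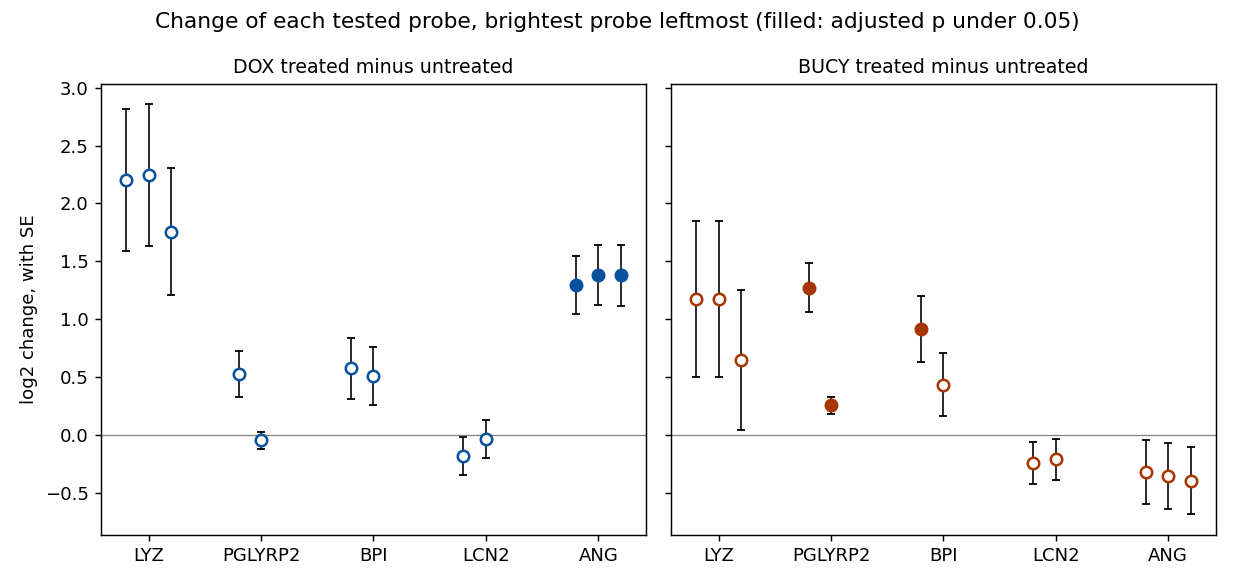
Log2 change with SE of each tested probe of the 5 genes with more than 1 tested probe, brightest probe leftmost, after DOX (left) and BUCY (right); filled points passed the threshold among probes. The 3 ANG probes lie at 1.29 to 1.38 after DOX and the 3 LYZ probes at 1.76 to 2.24.

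Levels were also set against each other between the experiments, where experiment and group cannot be told apart. Among untreated piglets 5 of the 9 genes differed between the experiments, where 25.2% of tested genes did, 12.2% lower and 13.0% higher in the BUCY experiment. LYZ was 4.0-fold lower in the BUCY experiment (log2 difference -2.0, SE 0.644, adjusted p = 0.026) and BPI 2.34-fold lower (-1.22, SE 0.275, adjusted p = 0.00218). PMAP-23 was 2.94-fold higher (1.55, SE 0.4, adjusted p = 0.00633), PBD-2 2.15-fold higher (1.11, SE 0.243, adjusted p = 0.00183) and LTF 1.64-fold higher (0.72, SE 0.171, adjusted p = 0.00352). The LTF call ended with the dim second probe, which gave 0.03 (adjusted p = 0.866). BPI and PGLYRP2 lay lower without overlap, as 9.01% of tested genes did, and LTF and PBD-2 higher without overlap, as 8.92% did.

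Within the slides and scan days that held untreated piglets of both experiments, 4 of those 5 differences kept their sign. LYZ differed by -2.80 and -0.61 within slides and by -2.07 and -0.75 within days. BPI gave -0.84 and -2.34 within slides, LTF 1.09 and 0.58, and PBD-2 1.35 and 0.94. PMAP-23 gave 0.83 and -0.10. With slide as a fixed block in the model the calls of LYZ (-2.07, adjusted p = 0.0829) and PMAP-23 (0.86, adjusted p = 0.159) ended. Scaling between arrays also ended that of LYZ (-1.77, adjusted p = 0.0555). The LYZ call ended without BUCY untreated piglet 2 (-1.54, adjusted p = 0.0901) or 4 (-1.87, adjusted p = 0.0611), or DOX untreated piglet 4 (adjusted p = 0.0524) or 6 (adjusted p = 0.0517). ANG (-0.69, adjusted p = 0.0588) and PGLYRP2 (-0.54, adjusted p = 0.0573) lay just short of the threshold and each passed in 11 of 41 alternatives. For ANG these included leaving out DOX untreated piglet 2, DOX treated piglet 3 or 5 or BUCY untreated piglet 2 (adjusted p = 0.0152 to 0.0491). With slide as a fixed block ANG passed too (-1.08, adjusted p = 0.0139). Its other probes gave -0.84 and -0.81 (adjusted p = 0.0246 and 0.0337 among probes). PGLYRP2 passed without DOX untreated piglet 3, DOX treated piglet 5 or BUCY treated piglet 1, 2, 3 or 5 (adjusted p = 0.0312 to 0.0498), among others. Its second probe gave -0.07 (adjusted p = 0.577 among probes).

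Among treated piglets 4 of the 9 genes differed between the experiments, where 10.6% of tested genes did, 6.19% lower and 4.41% higher in the BUCY experiment. ANG was 4.93-fold lower after BUCY than after DOX (-2.30, SE 0.262, adjusted p = 3.69e-06) with no overlap, as 3.34% of tested genes were. LYZ was 8.16-fold lower (-3.03, SE 0.644, adjusted p = 0.00401), BPI 1.85-fold lower (-0.88, SE 0.275, adjusted p = 0.0427) and PBD-2 2.36-fold higher (1.24, SE 0.243, adjusted p = 0.00207). PBD-2 did not overlap, as 1.52% of tested genes did not in that direction. Slide 5 was the only slide that held treated piglets of both experiments, DOX treated piglet 3 and BUCY treated piglets 3 and 4. BUCY treated piglet 3 is among those that stood apart. The differences there were -2.88 for ANG, -2.44 for LYZ, -1.27 for BPI and 1.65 for PBD-2.

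BPI's call among treated piglets ended in 17 of 41 alternatives, 11 of which left out 1 piglet (-0.93 to -0.71, adjusted p = 0.0502 to 0.123); without the arrays with a title suffix it was -0.60 (adjusted p = 0.265). PGLYRP2, not called there, passed without both piglets that stood apart (0.64, adjusted p = 0.0175) and with its second probe (0.24, adjusted p = 0.0414). Ordered by group mean, LYZ, ANG and BPI were highest in DOX treated piglets, and PMAP-23, LTF, LCN2 and PBD-2 in the untreated piglets of the BUCY experiment. Only 2 neighbouring steps in these orders were free of overlap: DOX treated over DOX untreated for LYZ, and DOX untreated over BUCY untreated for PGLYRP2. The means of the groups spanned 4.2 log2 units for LYZ and 0.46 for LCN2.

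Regional markers differed between the experiments as well. SLC10A2, which takes up bile acids in the ileum, had mean log2 ratios of 0.81 and -0.23 in untreated and treated piglets of the DOX experiment and -1.09 and -0.67 in those of the BUCY experiment. Untreated piglets thus differed by -1.90 (adjusted p = 3.43e-06), and FABP6, the ileal bile acid binding protein, by -2.21 (adjusted p = 0.0181). Within the DOX experiment 1 of these 2 markers fell, where 0.481% of all tested genes did, and their median log2 change was -0.82. After BUCY 0 passed (median 0.72). In the difference between the effects 1 passed with the higher value after BUCY (median 1.55), where 3.14% of tested genes did. ITLN2, the 1 measured gene of the 5 Paneth cell markers, differed by -2.82 (adjusted p = 7.81e-04) between untreated and by -2.45 (adjusted p = 0.00706) between treated piglets. The part of region or Paneth cells in the levels and changes of LYZ and ANG was not tested.

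Some of the 9 genes ran together over the 22 arrays, described by Pearson's r with no test, since arrays of a group and the common pool are shared. LYZ, ANG and BPI correlated at 0.676 (LYZ and ANG), 0.698 (LYZ and BPI) and 0.708 (ANG and BPI). Around the group means these were -0.08, 0.14 and 0.465, so the pairs with LYZ ran together between groups and not within them. LTF and PBD-2 correlated at 0.504 and, around the group means, at 0.674. LCN2 and PBD-2 gave 0.638 and 0.546.

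Among 2615 genes with a symbol, those most like each member over the 22 arrays were found by the same measure. For ANG they were RNASE1 (r = 0.921), another secreted ribonuclease, EDDM3B (0.876) and GPNMB (0.812), and around the group means the first pair kept 0.740 and 0.720 while GPNMB had 0.127. For LYZ they were TLR2 (0.840), a receptor for bacterial lipoproteins, SKIV2L (0.835) and FUT1 (0.834), a fucosyltransferase. Around the group means these had 0.459, 0.471 and 0.493. For BPI they were FUT1 (0.897), the complement protein C2 (0.825) and CCS (0.792), with 0.637, 0.413 and 0.165 around the group means.

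For PGLYRP2 they were DHRS4 (0.814), DMBT1 (0.812), a mucosal glycoprotein that binds bacteria, and GPX4 (0.810). Around the group means these had 0.895, 0.369 and 0.538. DHRS4 rose by 0.72 after BUCY (adjusted p = 0.0313) and DMBT1 by 3.11 (adjusted p = 9.4e-08). For PMAP-23 they were UCP3, APOA2 and UPK3A (0.760 to 0.772, and 0.525 to 0.567 around the group means). All of them fell after BUCY, by 1.63, 1.26 and 1.33 (adjusted p = 0.0109, 0.0394 and 0.00972). Such genes were picked by likeness over the same arrays, group differences included. A direction shared with the member thus follows largely from the choice. LTF (TAC3, RPL30, RDH16), LCN2 (IFN-DELTA-1, ADIRF, F12) and PBD-1 (TATDN1, UQCC, NFS1) had no gene above 0.73. PBD-2 was closest to ATP5E, RPL5 and IGFBP2 (0.802 to 0.839), with 0.438, 0.301 and 0.604 around the group means.

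RNASE1 and EDDM3B are also neighbours of ANG in the pig genome (Sscrofa11.1), where the measured genes stand in the order RNASE1, RNASE6, EDDM3B, RNASE4 and ANG. These neighbours within 100 kb were listed after the values had been seen. RNASE1 and EDDM3B had been picked above for likeness to ANG over the same arrays, so their shared direction follows in part from that choice. RNASE1 had a lowest and highest ratio of -0.89 and 0.07 in untreated and -0.07 and 1.93 in DOX treated piglets. It rose by 1.25 after DOX (adjusted p = 0.0241), and its BUCY minus DOX difference was -1.34 (adjusted p = 0.0492). EDDM3B, well above background on 10 of 22 arrays, rose by 0.80 (adjusted p = 0.00758).

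RNASE4, the nearest of the neighbours and itself an antimicrobial ribonuclease, had a lower correlation with ANG. It changed by 0.25 after DOX (adjusted p = 0.604; r with ANG 0.699, and 0.190 around the group means), and RNASE6 by 0.14 (adjusted p = 0.804; 0.778 and 0.571). The 5 genes are related in sequence or position, and cross-hybridisation among their probes was not tested.

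**Figure D4:**
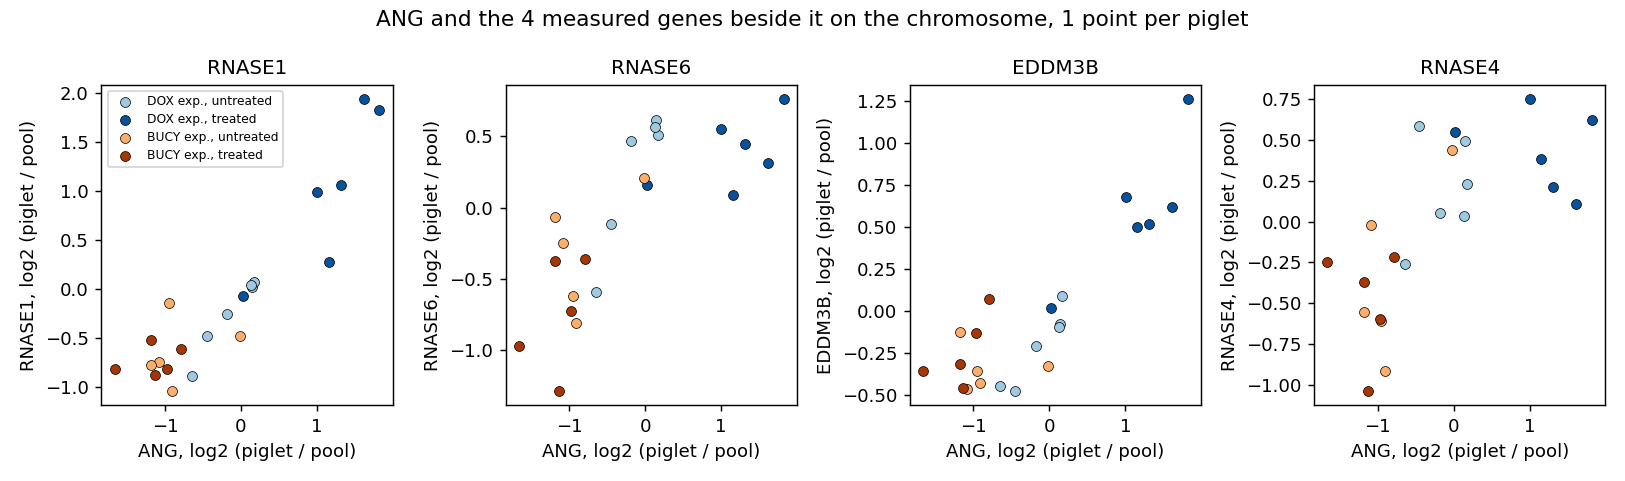
Log2 ratio of ANG (horizontal axis) against RNASE1, RNASE6, EDDM3B and RNASE4 (vertical axes) in 22 piglets, coloured by group. RNASE1 and EDDM3B rise along the axis with ANG in the DOX treated piglets (r = 0.921 and 0.876 over all 22 arrays), RNASE4 less so (0.699).

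Neighbours of BPI and PMAP-23 were read in the same way. LBP, the lipopolysaccharide-binding protein next to and related to BPI, correlated with it at -0.611. In untreated piglets LBP was higher in the BUCY than in the DOX experiment (1.31, adjusted p = 0.00414), where BPI was lower. NPG4, a protegrin cathelicidin beside PMAP-23, changed by -0.82 after BUCY (adjusted p = 0.234; r with PMAP-23 0.486), while PMAP-36 and PR39, well above background on 2 arrays and 1 array, were not tested.

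Of 44 other antimicrobial genes listed, 23 were on the array and 17 were tested. REG3G, a lectin that kills Gram-positive bacteria, rose after DOX (2.35, adjusted p = 0.00588), 1 of the 17 in either direction, where 0.848% of all tested genes changed. After BUCY 4 rose and 0 fell, where 8.23% of all tested genes rose and 9.05% fell: REG3G (4.25, adjusted p = 1.82e-05), DMBT1, the lectin SFTPD (1.77, adjusted p = 8.86e-04) and REG4 (1.10, adjusted p = 0.0272). The median log2 change of the 17 was 0.12 after each drug.

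Of 14 partners and receptors of these proteins 7 were tested. CD14, the co-receptor that takes lipopolysaccharide from LBP, was the 1 that passed after each drug, where 0.848% and 17.3% of all tested genes did. It rose by 1.26 after DOX (adjusted p = 0.00118) and by 0.81 after BUCY (adjusted p = 0.0138). The median of the 7 was -0.03 and 0.08. TLR4 changed by -0.03 and -0.27 and TLR2 by 0.60 and 0.34, short of the threshold.

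Among 11 tested genes of iron and siderophore handling, CP, the ferroxidase ceruloplasmin, rose after DOX (0.92, adjusted p = 0.00517). It was the 1 of the 11 that passed, where 0.848% of all tested genes did. After BUCY 3 of the 11 rose and 2 fell, beside 8.23% and 9.05% of all tested genes. The ferritin chains FTH1 (-1.30, adjusted p = 0.00134) and FTL (-0.69, adjusted p = 0.00801), which store iron, fell, and CP (0.74, adjusted p = 0.00811), the haemoglobin binder HP (1.56, adjusted p = 0.0186) and the transferrin receptor TFRC (0.81, adjusted p = 0.0329) rose. LTF and LCN2 passed after neither drug.

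Of 14 tested genes of inflammatory signalling, 0 passed after DOX in either direction by limma, where 0.848% of all tested genes did. Unadjusted p was under 0.05 for 3418 of all 24764 genes. After BUCY 4 rose and 0 fell, where 8.23% and 9.05% of all tested genes did. The 4 that rose were IL1B (1.38, adjusted p = 0.00844), CXCL2 (1.97, adjusted p = 0.00475), STAT3 (0.80, adjusted p = 0.0127) and NFKBIA (0.89, adjusted p = 0.0246). IL18, a cytokine of epithelial cells, changed by 0.86 after DOX and -0.55 after BUCY, short of the threshold.

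Markers of cells that could carry these proteins were read beside them. Of 14 neutrophil markers 5 were tested and S100A8, S100A9 and S100A12 were well above background on 13, 9 and 17 of 22 arrays; the mean of the 5 had medians of -0.38 and 0.01 in untreated and DOX treated piglets and -0.15 and -0.01 in the BUCY experiment. Of the 5, 0 passed after DOX by limma, where 0.848% of all tested genes did. After BUCY 1 rose and 1 fell, where 8.23% and 9.05% did. The one that rose was MMP9, a protease of neutrophil granules (1.26, adjusted p = 0.0142). The 5 macrophage markers had medians of -0.10 and 0.29, and -0.35 and -0.47. After DOX 2 of them, CD163 (1.31, adjusted p = 5.06e-04) and CD14, rose, where 0.367% of all tested genes did, and 0 fell. AIF1, C1QA and C1QB had lower means in DOX treated (-0.25, 0.01 and -0.10) than in untreated piglets (0.19, 0.37 and 0.28). The median log2 change of the 5 was thus -0.36 after DOX. After BUCY 2 rose and 1 fell, with a median log2 change of -0.54. The part of these cells in the values of LYZ, LTF, BPI and PMAP-23 was not tested.

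Enterocyte markers had medians of 0.06 and 0.09 in the DOX experiment, and 0.57 and 0.09 in the BUCY experiment, where they ran from -2.22 to 0.82 after treatment. After BUCY 4 of 7 fell and 0 rose, where 9.05% and 8.23% of all tested genes did. The same shares stand beside the secretory and pancreatic markers. Among 3 tested goblet and secretory genes 1, SPINK4, fell after BUCY (-1.12, adjusted p = 0.00299). Of 6 pancreatic markers 3 were tested and AMY2 fell after BUCY (-1.23, adjusted p = 4.78e-04). Of 4 hepatocyte markers 1, ALB, was tested, well above background on 13 arrays, and it changed by 0.01 and -0.05. Markers of the upper small intestine, 2 of them tested, passed in no comparison.

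In the value table deposited by the authors the genes called after each drug and in the difference between the effects were called too. The exceptions lay elsewhere: PMAP-23 turned sign after DOX (-0.02 against 0.21) and between treated groups (0.04 against -0.07), short of the threshold on both scales, and BPI between treated groups lost its call (-0.83, adjusted p = 0.0573). LYZ changed by 2.28 (adjusted p = 0.0676) and ANG by 1.32 (adjusted p = 0.0107) after DOX. PGLYRP2 changed by 1.29 (adjusted p = 4.42e-04), PMAP-23 by -1.41 (adjusted p = 0.0201) and BPI by 0.97 (adjusted p = 0.0285) after BUCY. The BUCY minus DOX difference was -1.64 for ANG (adjusted p = 0.014) and -0.89 for LTF (adjusted p = 0.0426).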

How the data were processed

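Each of 22 piglets has 1 two-colour Agilent array, with its small intestinal RNA in Cy5 and a pool of all samples in Cy3, per the labels, and no array in the other dye order. The piglet is the replicate, and piglet numbers, given in array order, pair nothing. The arrays lay on 7 slides scanned on 3 days. Slide 4 held 1 array, BUCY treated piglet 2. Differences within a slide compare 1 to 3 piglets with 1 or 2 others.

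The scanner files deposited by the authors hold median spot and background intensity and, as an alternative, Agilent's own log10 ratio of Cy5 to Cy3, from Agilent Feature Extraction 10.7.3.1, per the file headers; other columns hold 0 or 1 quality flags, per the file headers. They hold median and no mean signals, so medians were used. Intensities were corrected by normexp (offset 50) and normalised by loess within arrays, control spots at weight 0, in limma 3.58.1 (R 4.3.3). Spots marked as outliers (3 to 52 per array) were dropped and 0 were saturated; none of the 9 genes lost a value. The deposited table holds log2 ratios of Cy5 to Cy3, for which the submitters' processing notes name Agilent Feature Extraction and limma. Its arrays correlated at 0.974 to 0.998 with normexp, loess and between-array quantile normalised ratios (slopes 0.913 to 1.13; medians 0.00146 to 0.018), so scale, centring and direction match, while the sources used here do not give its exact steps. It served as an alternative and its values for the 9 genes are given.

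Accessions were joined to RefSeq genes of Sscrofa11.1, which named 6700 of 43603 probes (15.4%). One limma model (4 group means, two-sided, 18 residual and 3.38 prior degrees of freedom) was fitted to 24764 genes, with Benjamini-Hochberg adjustment over all of them, a threshold of 0.05, and 5 comparisons. On simulated data for the DOX comparison with 24764 genes, 94% of changes of 1 and 98% of changes of 2 on the log2 scale were recovered, with 3.52% false among the calls. The noise was normal and independent between genes, with the same SD in all groups, and the changed genes were drawn at random. No slide, scan day or outlying array was simulated, so these rates need not hold for the 9 genes. Always named are the 9 genes, the 3 genes most like each, up to 4 changed genes per list and drug, and markers, apart from 1 marker gene whose result is not reported here. TFRC, IL18, TLR4 and the neighbouring genes were named beyond this after their values were seen. The 9 genes and all lists were chosen with earlier results of these data known. Alternatives changed background, normalisation, channel, filter, probe, block, samples and weights; probes as separate features were added after seeing the data. Figures were drawn with matplotlib in Python.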

Additional observations from a re-analysis of the deposited data

Results flagged for a closer look

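Of 36 groups of piglets examined over the 9 genes, 2 held a piglet far from the others, where chance gives about 1 in 20. ANG in untreated piglet 2 of the BUCY experiment, at -0.0152 on the log2 scale, lay far above the next piglet at -0.91, with 0.766 of the group's range between them. LTF in BUCY treated piglet 2, at -0.736, lay far below the next at -0.07, with 0.738 of the range between them; that piglet also stood apart over all genes, and the part of this was not tested.

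By the interaction test ANG and LTF changed unequally in the DOX and BUCY experiments, where drug and experiment cannot be told apart. The BUCY minus DOX difference on the log2 scale was -1.61 for ANG (adjusted p = 0.0124 by limma), with ANG changed by 1.29 after DOX and -0.32 after BUCY. For LTF it was -0.903 (adjusted p = 0.03), with changes of 0.48 and -0.42. LTF differed, BUCY minus DOX experiment, by 0.72 between untreated groups (limma adjusted p = 0.00352) and by -0.19 between treated groups (adjusted p = 0.517). The LTF call ended in 12 of 40 alternatives and that of ANG in 2 of 40.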

How the results depend on the processing

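No paired analysis was possible because the piglet numbers follow array order. Over the alternatives, the number of the 9 genes called between untreated groups (5) and between treated groups (4) stayed within 1.5 times. After DOX the count of 1 became 0 with median centring and without the arrays with a title suffix, 2 with scaling between arrays, 3 without both BUCY treated piglets that stood apart and with only the groups compared, and 4 with array weights; leaving out 1 piglet gave 1 to 2. After BUCY the count of 3 became 1 without both piglets that stood apart, with only the groups compared and with array weights; leaving out 1 piglet gave 1 to 4. The count of 2 for the difference between effects became 1 with Agilent's log ratio, Cy5 alone, the second probe and slide as a fixed block, and 0 with median centring and without the suffixed arrays; leaving out 1 piglet gave 1 to 3. All genes called ranged from 89 to 1273 after DOX (210 as reported), 900 to 6291 after BUCY (4278), 104 to 2392 for the difference (1455), 3849 to 8615 between untreated (6240) and 953 to 4534 between treated groups (2624). Of the log2 changes of single members under the alternatives, 1678 kept their sign and side of the threshold, 63 lost a call, 37 gained one and 43 turned sign. The causes were not tested.

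Signs turned for small differences. With the deposited table, Cy5 alone and slide as a fixed block PMAP-23 after DOX was -0.0196, -0.0223 and -0.128. With the second probe PGLYRP2 after DOX was -0.0479 and BPI in the difference between effects -0.0768. With slide as a fixed block PBD-2 after BUCY was 0.197, and between treated groups LTF was 0.0148 and PBD-1 0.137. Without the suffixed arrays LCN2 was 0.0243 after BUCY and 0.165 in the difference, PBD-1 -0.378 in the difference and 0.167 between untreated groups, and PBD-2 -0.126 in the difference. Median centring gave, in the difference, -0.00255 for BPI, -0.0278 for PBD-1 and -0.146 for PBD-2, and -0.288 for PGLYRP2 between treated groups. Array weights gave -0.215 for PBD-1 and -0.162 for PBD-2 in the difference. Between treated groups PMAP-23 was 0.259 with Agilent's log ratio, 0.169 with scaling, 0.0449 with the deposited table and 0.0838 with Cy5 alone. LYZ after BUCY was -0.0825 without both piglets that stood apart. Leaving out 1 piglet ranged from -0.175 to 0.113 for LCN2, -0.157 to 0.136 for PBD-1 and -0.0886 to 0.329 for PBD-2 in the difference, and from -0.232 to 0.0745 for PMAP-23 between treated groups. Dim signal limits LCN2, PMAP-23, PBD-1 and the second probes of LTF and PGLYRP2.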
